A study of Mus musculus with 237 samples.

Results

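Mouse embryonic skin cells were compared by the keratins they carried. The simple-keratin columns, with Krt8 and Krt18 but hardly any Krt5 or Krt14, numbered 65, and the basal-keratin columns, with Krt5 and Krt14 but hardly any Krt8, numbered 43. The other 129 sequenced cells belonged to neither state. A column is the count profile of 1 sequencing run, that is, of 1 sorted cell. Members were chosen by their own measured values, given as CPM, the counts of a gene per 1000000 counts of the column. A simple-keratin column had at least 100 CPM of both Krt8 and Krt18 and under 100 CPM of both Krt5 and Krt14. A basal-keratin column had at least 300 CPM of both Krt5 and Krt14, under 100 CPM of Krt8, under 1000 CPM of Krt17 and under 500 CPM of Krt1 and Krt10. Columns with at least 100 CPM of both Col1a1 and Col3a1, called collagen-high here and 79 in number, were left out of both states, and every column had 3000 or more genes counted.

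The study took single cells from the skin of C57BL/6N fetuses at E14.5, carried by surrogate ICR mothers. The labels describe 66 cells of 3 wild-type (WT) fetuses and 171 cells of 7 Trp63 mutant (p63 knockout) fetuses, made by Cas9 cutting in the zygote, so that each mutant fetus carries its own alleles. WT epidermis was lifted off with dispase before trypsin, whereas the methods state direct trypsin digestion of p63 knockout fetuses, without naming the skin. Live cells negative for CD45, TER119 and CD140a were sorted, and full-length cDNA was screened by qPCR, on Krt5 for WT and on Krt8 for p63 knockout cells, with Pdgfra as a screen against dermal cells. Of all columns only 16 could be paired with a labelled cell, all of embryo WT01, and 11 of them, each labelled as basal layer, fell among the 43 basal-keratin columns. None fell among the 65 simple-keratin columns. Genotype, fetus, dissociation and qPCR screen of the other columns are therefore unknown, and their parts in the differences below cannot be told apart from the keratin state. Because all cells form 1 pool chosen on expression, no test was made and values are descriptions.

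Keratins form obligate pairs of a type I and a type II chain. Krt8 and Krt18 pair in simple, single-layered epithelia and in the early surface ectoderm, and Krt5 and Krt14 pair in the basal layer of stratified epidermis. Tight junctions seal neighbouring cells near their apical side, desmosomes and adherens junctions hold cells to each other, and hemidesmosomes anchor basal cells to the basement membrane. The transcription factor p63 is required for the surface ectoderm to become a stratified epidermis.

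**Figure D1:**
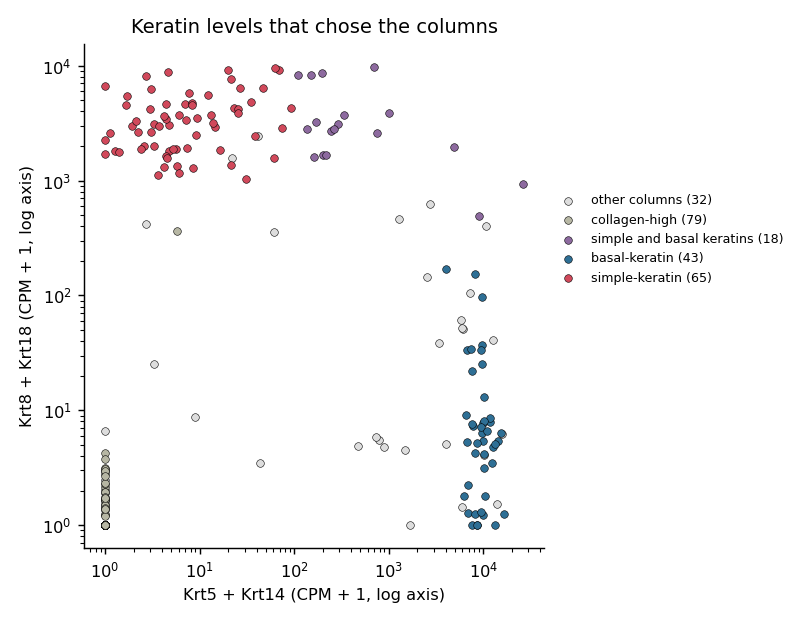
Summed Krt5 and Krt14 (x axis) against summed Krt8 and Krt18 (y axis) in each of the columns, in CPM + 1 on log axes, with 1 point per column coloured by state. The 65 simple-keratin columns lie at the upper left and the 43 basal-keratin columns at the right, as the rule placed them. The 18 columns with simple and basal keratins lie in the upper part, most of them between both states along the x axis.

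In the simple-keratin columns Krt8 was 287, 2069 and 6290 CPM (lowest, median and highest column) and Krt18 was 195, 1207 and 5850 CPM. In the basal-keratin columns Krt5 was 491, 3935 and 7156 CPM and Krt14 was 3498, 5488 and 9464 CPM. The highest Krt5 in a simple-keratin column was 73.0 CPM, and the nearest column kept out by Krt5 alone had 102 CPM. The highest Krt8 in a basal-keratin column was 47.4 CPM, and the nearest column kept out by Krt8 alone had 104 CPM. Krt18 had no limit in the basal state. It was at most 149.5 CPM in a basal-keratin column and reached 100 CPM in 2 of 43. No column was kept out of the simple state by Krt8 alone, and 4 were kept out by Krt18, the nearest at 34.7 CPM. The genes of the rule were left out of every comparison that follows.

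Depth was alike in both states. Total counts were 2874152, 7298099 and 19197138 in simple-keratin columns and 4934158, 7865694 and 15709545 in basal-keratin columns (lowest, median and highest). All 37 mitochondrial genes had 0 counts, so their share could not serve as a measure of cell quality. Genes that collect ribosomal RNA reads (CT010467.1, Gm42418, AY036118 and Gm26917) held a median of 2.58% of counts in simple-keratin and 2.90% in basal-keratin columns. After each column was thinned to 500000 counts, a median of 7595 genes had a count in simple-keratin columns (2404 to 9911) and 9159 in basal-keratin columns (7642 to 10597). Fewer genes were thus counted in the simple-keratin state at equal depth, and the ranges of both states overlapped.

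Of 5 epithelial markers, Epcam, Cdh1, Esrp1, Cldn6 and Cldn7, at least 4 reached 10 CPM in 60 of 65 simple-keratin columns, in 12 of 43 basal-keratin columns and in 0 of 79 collagen-high columns. At least 3 did so in 61 of 65 simple-keratin and 39 of 43 basal-keratin columns. Epcam reached 10 CPM in 43, Cdh1 in 42 and Esrp1 in 39 of 43 basal-keratin columns, whereas Cldn6 did so in 9 and Cldn7 in 6. Marker lists of other cell types were then read in the 65 simple-keratin columns. Every neuronal marker stayed under 10 CPM in 65 columns, every immune and every muscle marker in 64, every endothelial marker in 62 and every melanoblast marker in 59. Every Merkel cell and every mesothelial marker did so in 51, every erythroid marker in 48 and every Schwann cell marker in 11. At 10 CPM or more, Lyz2, of macrophages, was found in 1 column, Des, of muscle, in 1, Kdr, of endothelium, in 2, Pmel, of melanoblasts, in 5, Piezo2, of Merkel cells, in 9, Msln, of mesothelium, in 10 and Hba-a1, of erythroid cells, in 15. Erbb3, listed for Schwann cells but also made by epithelia, was found in 52. The defining genes Atoh1 (Merkel cells), Cdh5 (endothelium), Sox10 (Schwann cells and melanoblasts), Ptprc (leukocytes), Myod1 (muscle) and Wt1 (mesothelium) reached 10 CPM in 0 columns. At least 2 markers of 1 list were found together in 11 columns for erythroid cells, 4 for Schwann cells, 2 for Merkel cells, 1 each for mesothelium and immune cells and 0 for endothelium, melanoblasts, muscle and neurons. The part of such RNA in the results was not tested. Of the fibroblast markers, Pdgfra, Pdgfrb, Dpt and Twist2 reached 10 CPM in 0 simple-keratin columns, Lum in 7 and Col1a2 in 13, while Dcn and Postn were counted in both states (972 and 252 CPM in summed simple-keratin columns, 759 and 579 CPM in summed basal-keratin columns). Every fibroblast marker stayed under 10 CPM in only 7 of 65 simple-keratin columns. At least 2 fibroblast markers were found together in 40 of 65 simple-keratin and 43 of 43 basal-keratin columns. The part of fibroblast RNA was not tested either.

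Col3a1 alone was widespread in the simple-keratin state. It reached 100 CPM in 32 of 65 simple-keratin columns, with a median of 384 CPM there, while Col1a1 had a count in 3 of those 32 and at most 89.4 CPM. In the collagen-high columns Col3a1 was a median of 2.44 times Col1a1. No basal-keratin column passed 88.4 CPM of Col3a1. Of the 18 columns with simple and basal keratins, 6 also reached 100 CPM of Col3a1, and Col1a1 was at most 0.279 CPM in the 18. When either collagen at 100 CPM removed a column, 33 simple-keratin columns remained.

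There were 3 simple-keratin columns that stood apart from the rest. The first had 72.5% of its counts in haemoglobin genes, against at most 0.377% in any other simple-keratin column, with 3904 CPM of Alas2, the erythroid haem synthesis enzyme, and 3.65 CPM of Epcam. The other two had 27.4% and 32.9% of their counts in the 4 ribosomal RNA genes, with 13.03 and 246 CPM of Epcam and 2.17 and 745 CPM of Cldn3. Values below include these columns, and the totals of called genes are also given without them.

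Between the summed columns of both states, 12368 genes reached 5 CPM in either and were compared. A gene was called higher in a state where the ratio of summed CPM, with 1 CPM added to each, was at least 4-fold and where the column of that state held the higher value in at least 75% of the 2795 pairs of a simple- and a basal-keratin column. By this rule 164 genes (1.33% of those compared) were called higher in simple-keratin columns and 249 (2.01%) higher in basal-keratin columns. The median log2 ratio over all genes compared was 0.04. Without the haemoglobin-rich column the counts were 175 and 240. Without all 3 columns 181 genes were called in the simple direction, which was 43.3% of all calls then made. Of the genes called with all columns, 161 of 164 and 233 of 249 were still called in the same direction. Since Nextera libraries without molecular identifiers count amplified reads, the 95% Poisson intervals given below for summed counts cover counting error only.

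**Figure D2:**
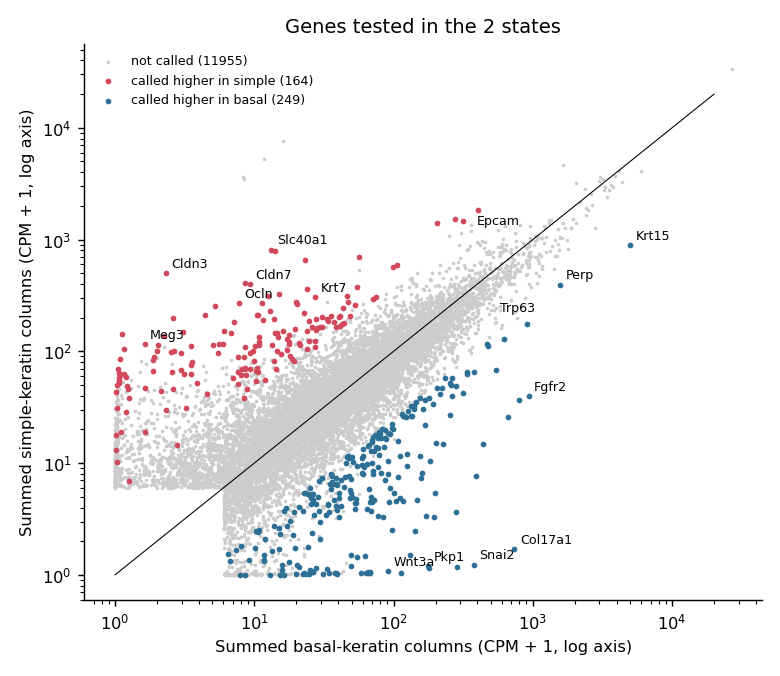
Summed CPM + 1 of each of the 12368 genes compared in basal-keratin columns (x axis) and simple-keratin columns (y axis), on log axes, with the line of equal levels. Genes called higher in simple-keratin columns (164) lie above it and genes called higher in basal-keratin columns (249) below it.

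Tight junction genes were the list with the largest share called higher in simple-keratin columns among the 25 functional lists. Of the 13 genes of this list, 9 were called higher in simple-keratin columns and 0 in basal-keratin columns, with a median log2 ratio of 4.35 over the 13. The list was chosen with earlier results of these data known, so it is not independent evidence of direction. Cldn3, a claudin that seals the paracellular space, was 0.782, 413 and 2036 CPM in simple-keratin columns and 0, 0.188 and 24.8 CPM in basal-keratin columns (lowest, median and highest). Its summed level was 497 CPM (95% Poisson interval 495 to 499) against 1.31 CPM (1.2003 to 1.43), and it reached 10 CPM in 62 of 65 and 1 of 43 columns. The states overlapped through a few columns at the low end of the simple state. Cldn6, an embryonic claudin, was 0.805, 578 and 2096 CPM in simple-keratin and 0, 0.781 and 169 CPM in basal-keratin columns. Cldn7 was 0.161, 329.7 and 1290.3 and 0, 0.164 and 119 CPM. Ocln, which encodes the tight junction protein occludin, was 0, 283 and 910.2 and 0, 0.313 and 78.04 CPM. In each of these genes the basal-keratin median was below 1 CPM and the simple-keratin median was above the highest basal-keratin column.

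Further called members were Cldn4 (561 against 98.7 CPM, summed), the tricellular junction gene Marveld2 (112 against 4.04 CPM), the scaffold gene Tjp3 (212 against 9.45 CPM), and Cgn, which encodes cingulin (265 against 19.1 CPM). Cldn1, the claudin of the epidermal barrier, was not called (57.4 against 43.7 CPM, higher in the simple-keratin column in 36.6% of pairs). Tjp1, F11r and Cldn23 were not called either, with log2 ratios of 0.86, 1.06 and 5.85. Cldn23 reached 10 CPM in 15 of 65 simple-keratin columns and 0 of 43 basal-keratin columns. All 9 called members reached 10 CPM together in 31 of 65 simple-keratin columns and in 0 of 43 basal-keratin columns, where the median was 8 and 2 members. In the collagen-high columns the median was 0 members. Since the 9 members were picked by the calls on these same simple- and basal-keratin columns, these counts describe the calls and are no further evidence.

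**Figure D3:**
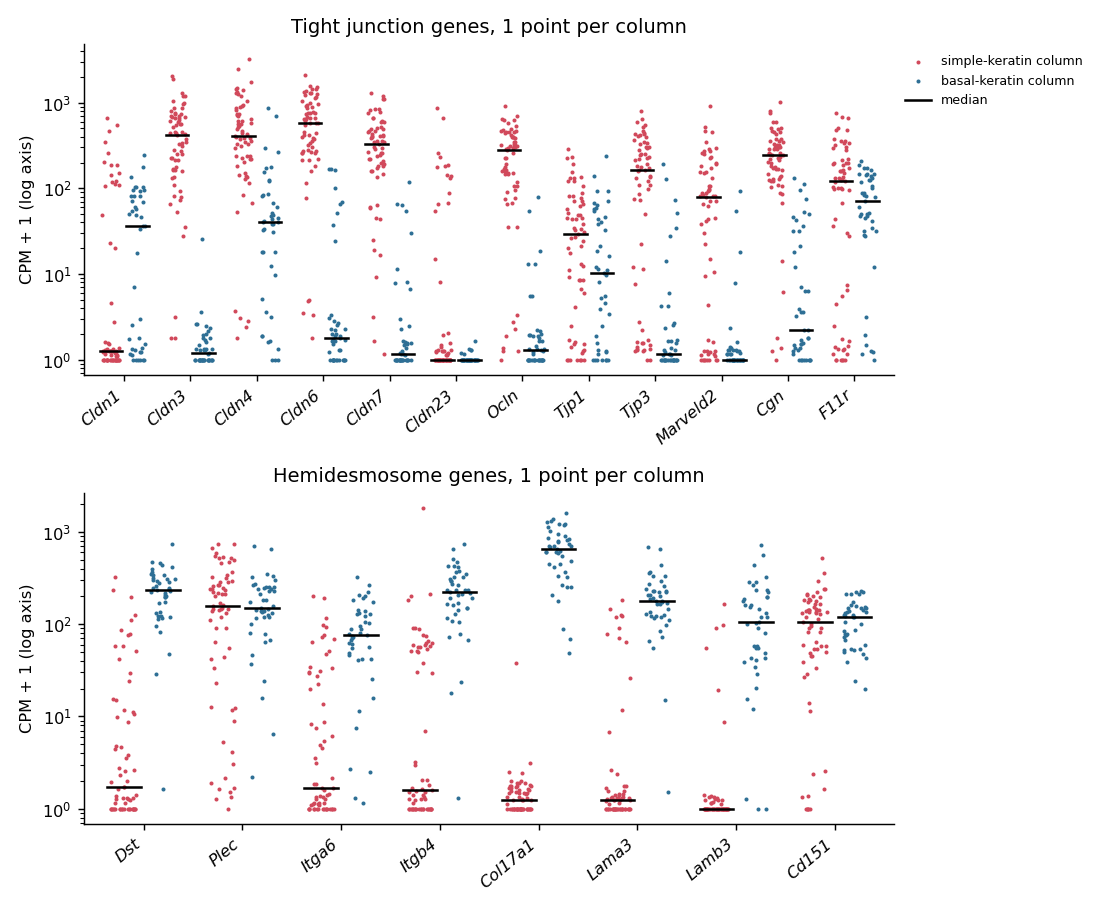
CPM + 1 (log axis) of 12 tight junction genes (upper panel) and 8 hemidesmosome genes (lower panel) in each of the 65 simple-keratin and 43 basal-keratin columns, with black bars at the medians. Simple-keratin points lie high for Cldn3, Cldn6, Cldn7 and Ocln, basal-keratin points lie high for Col17a1, Lama3 and Lamb3, and Plec and Cd151 overlap throughout.

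Promoter letters of these genes are shown because 9 of 13 members were called in 1 direction. CAGGTG is an E-box, a short motif that zinc finger repressors such as the product of Snai2 are known to bind, and binding was not measured in these cells. RefSeq windows of GRCm38.p6, from 250 bases before to 50 bases after a transcription start, were found for 8 of the 9 genes. The letters CAGGTG, read on both strands, were in a window of 7 of these 8 genes, the exception being Cgn. They were in a window of 40 of 108 genes called higher in simple-keratin columns (37.04%), in 38 of 176 called higher in basal-keratin columns (21.6%), in 20.4% of the 9041 genes compared that had a window, and in 22.6% of all 27025 genes in the table. Without the tight junction genes the first share was 33 of 100 genes. Over genes with a single window it was 33.3%, against 16.8% of the genes compared. The 8 tight junction genes had a mean of 1.5 windows each, against 1.28 for the genes compared. Only 4 of the 8 had a single window, and 75% of these 4 held the letters. Before the start alone, the letters were in 62.5% of the 8 genes and 17.9% of the genes compared. Of the tight junction genes not called, F11r held the letters in its window, and Tjp1 and Cldn1 did not. CAGGTG was singled out among 10 motifs after their shares were seen. GCCNNNGGC, a motif of AP-2 factors, was in 28.7% of the genes called higher in the simple state and 28.99% of the genes compared, 35.2% of those called higher in the basal state and 18.5% of all genes in the table. The p63 half-site was in 5.56% of the genes called higher in the simple state, 7.96% of those compared, 8.52% of those called higher in the basal state and 9.55% of all. The other motifs, searched on both strands and free to overlap, are given for the genes called higher in the simple state, the genes compared and all genes in the table. CAGCTG was in 23.1%, 17.3% and 18.3%, CATTCC in 22.2%, 13.99% and 16.6%, AGATAA in 13.9%, 7.22% and 12.7%, and TGANTCA in 10.2%, 5.59% and 8.97%. AACNGGTT was in 4.63%, 2.32% and 2.35%, AGGAAGT in 10.2%, 9.61% and 10.7%, and CCAAT in 43.5%, 43.7% and 41.1%. Relative to the genes compared, the shares of AGATAA, AACNGGTT and TGANTCA thus differed about as much as that of CAGGTG. The 250 bases before the start of Cldn4 (chr5:134946935-134947184, minus strand) and Cldn6 (chr17:23679115-23679364, plus strand) read as follows, 5′ to 3′ on the strand of the gene, with CAGGTG or its reverse complement in capitals.
Cldn4: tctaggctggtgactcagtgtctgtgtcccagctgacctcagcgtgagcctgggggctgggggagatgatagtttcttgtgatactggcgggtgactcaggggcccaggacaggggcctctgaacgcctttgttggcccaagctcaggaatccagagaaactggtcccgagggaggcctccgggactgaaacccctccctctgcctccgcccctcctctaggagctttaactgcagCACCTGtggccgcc
Cldn6: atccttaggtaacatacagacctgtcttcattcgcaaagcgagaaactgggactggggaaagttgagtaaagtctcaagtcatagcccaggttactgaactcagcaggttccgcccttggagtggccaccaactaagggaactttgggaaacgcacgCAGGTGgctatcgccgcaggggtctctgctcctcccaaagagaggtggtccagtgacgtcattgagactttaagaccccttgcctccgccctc

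Shorter stretches show the same letters in the other genes. Cldn4 and Cldn6 each held a further match after the start. In Cldn7 the matches lay 97 and 57 bases before 1 of its starts (chr11:69965312-69965341 and chr11:69965352-69965381, plus strand). In Ocln a match lay 68 bases before a start (chr13:100552549-100552578, minus strand), and in Tjp3 matches lay 17 bases before 1 start and 108 bases before another (chr10:81291267-81291296 and chr10:81291672-81291701, minus strand). In Cldn3 the letters lay 31 bases after the start (chr5:134986233-134986262, plus strand) and in Marveld2 16 bases after a start (chr13:100616911-100616940, minus strand), within the transcribed part. A match is a run of letters and not a measured binding site.
Cldn7: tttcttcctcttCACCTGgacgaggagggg
Cldn7: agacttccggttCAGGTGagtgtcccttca
Ocln: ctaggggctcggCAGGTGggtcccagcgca
Tjp3: cacaaaccctccCACCTGcaggccggcctc
Tjp3: gtcacaaggggtCAGGTGtacagacaggga
Cldn3: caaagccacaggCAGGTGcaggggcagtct
Marveld2: ccggcggccgcgCAGGTGagtggggccgcg

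Genes of epithelial identity leaned to the simple state. All 13 had a log2 ratio above 0, with a median of 1.76, and 5 were called higher in simple-keratin columns. They included the protease gene Prss8 (203 against 29.5 CPM, summed) and its inhibitor Spint1 (308 against 73.8 CPM), the apical polarity gene Crb3 (60.03 against 7.66 CPM) and Marveld3 (95.6 against 4.45 CPM). Epcam itself was 3.65, 1161 and 3023 CPM in simple-keratin and 35.04, 318 and 915 CPM in basal-keratin columns, below the 4-fold limit at a log2 ratio of 1.74, although the simple-keratin column was higher in 89.1% of pairs. Cdh1, the gene of E-cadherin, was 1.26, 828 and 2648 and 4.32, 365 and 932 CPM, with overlapping states and a log2 ratio of 1.31. Of 8 adherens junction genes compared, with a median log2 ratio of 0.20, 1 was called, Nectin4 (326 against 14.01 CPM), and the catenin genes Ctnnb1 and Ctnna1 had log2 ratios of -1.03 and 0.52.

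Desmosome genes split between the states. Of 11 compared, 2 were called higher in simple-keratin and 3 in basal-keratin columns. Pkp2, a plakophilin of simple epithelia and heart, was 0, 84.6 and 461 CPM in simple-keratin and 0, 0 and 32.5 CPM in basal-keratin columns. Pkp1, a plakophilin of stratified epithelia, was 0, 0 and 1.31 and 0, 134 and 992 CPM. No simple-keratin column passed 1.31 CPM of Pkp1. Of the desmosomal cadherin genes, 1 was called in each direction, with Dsc2 at 66.2 against 0.875 CPM and Dsc3 at 3.86 against 39.6 CPM in summed simple- and basal-keratin columns, and Dsg1a, Dsg2 and Dsg3 were not called. Perp, a desmosome gene that p63 activates, was 0.317, 265 and 1882 CPM in simple-keratin and 627, 1477 and 2592 CPM in basal-keratin columns. Dsp, which encodes desmoplakin and is shared by all desmosomes, had a log2 ratio of -0.29, and Pkp3 of -0.41.

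Keratins outside the rule were called in both directions, 2 of 6 compared in each. Krt7, a type II keratin of simple epithelia, was 0.164, 235 and 1431 CPM in simple-keratin and 0, 1.72 and 266 CPM in basal-keratin columns. Krt19 was 0, 53.5 and 1799 and 0, 0.135 and 59.99 CPM, with 39 of 65 simple-keratin and 5 of 43 basal-keratin columns at 10 CPM or more. Krt15, a keratin of the basal layer, was 1.04, 148 and 10598 and 45.7, 4178 and 14894 CPM. Its states overlapped widely, and 42 of 65 simple-keratin columns held at least 10 CPM. Krt16 was 24.3 against 0.0946 CPM in summed basal- and simple-keratin columns, a low level for a gene whose reads can be shared with its near-identical relatives Krt14 and Krt17. Krt4 and Krt80 were at most 1.203 and 0.307 CPM in a basal-keratin column but were counted in few simple-keratin columns, at 7 and 18 of 65 with 10 CPM, and were not called.

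Hemidesmosome genes showed the reverse of the tight junction genes. Of 9 members, 6 were called higher in basal-keratin columns and 0 in simple-keratin columns, with a median log2 ratio of -2.37. The study compared these genes on these same cells, so the list is not independent evidence of its direction. Col17a1, a transmembrane collagen of the hemidesmosome, was 0, 0.251 and 36.7 CPM in simple-keratin and 48.1, 655 and 1579.9 CPM in basal-keratin columns. Summed, it was 737 CPM (95% Poisson interval 734 to 739.9) against 0.702 CPM (0.634 to 0.775). It was the only 1 of the 12368 genes whose basal-keratin columns all lay above all simple-keratin columns, and no gene did so in the other direction. The laminin chain gene Lamb3 was 0, 0 and 164 and 0, 104 and 722 CPM, and Lama3 was 0, 0.2605 and 180.2 and 0.509, 178 and 675 CPM. Both laminin chain genes had basal-keratin columns near 0 and simple-keratin columns with clear counts, so their states overlapped.

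The integrin genes were less apart. Itgb4 was 0, 0.613 and 1809 CPM in simple-keratin and 0.311, 224 and 734 CPM in basal-keratin columns, and 24 of 65 simple-keratin columns reached 10 CPM. Itga6, its partner, was 0, 0.7002 and 199.6 and 0.168, 75.02 and 323 CPM, with 20 of 65 simple-keratin columns at 10 CPM or more. Dst, which links keratin filaments to the hemidesmosome, was 0, 0.737 and 321 and 0.622, 233 and 735 CPM. The other linker gene, Plec, was 0, 156 and 734 and 1.23, 149 and 697 CPM, and the tetraspanin gene Cd151 was 0, 103 and 519 and 19.04, 119 and 225 CPM. Neither Plec nor Cd151 was called, and their states overlapped over nearly the whole range. All 6 called members reached 10 CPM together in 34 of 43 basal-keratin columns and in 0 of 65 simple-keratin columns, where the median was 6 and 1 members. In 1 simple-keratin column 4 of the 6 reached 10 CPM. The 6 members were likewise picked by the calls on these same columns, so the counts are no further evidence.

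Of 8 focal adhesion genes compared, also a list the study examined on these cells and so not independent evidence of direction, 1 was called higher in basal-keratin columns and 0 in simple-keratin columns. Fermt1, the kindlin gene of epithelial cells, was 0, 0 and 64.9 CPM in simple-keratin and 0, 50.4 and 163 CPM in basal-keratin columns. Itga3 was 0, 42.2 and 3088 and 0.934, 254 and 673 CPM, higher in the basal-keratin column in 84.9% of pairs but below the fold limit at a log2 ratio of -1.26. Itgb1, Tln1, Vcl, Lamb1, Lamc1 and Fermt2 had log2 ratios of -0.17, -0.10, 0.62, 0.18, -0.64 and 0.64. Actn1 was too low to be compared in either state (2.75 against 4.704 CPM). Of 11 basement membrane genes, 3 were called higher in basal-keratin columns, and the median log2 ratio was -0.03. Col7a1, the anchoring fibril collagen, was 0, 42.6 and 268 CPM in basal-keratin columns and at most 0.569 CPM in a simple-keratin column. Col4a1 and Col4a2, neighbouring genes of the network collagen, were 260.2 against 56.97 CPM and 125 against 28.1 CPM in summed basal- and simple-keratin columns. Lama5, Hspg2, Fras1, Frem2 and Npnt, also made by epithelial cells, were not called, with log2 ratios between -0.18 and 0.72.

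Genes that p63 is known to activate were called in the basal direction only. Of 14 compared, 5 were called higher in basal-keratin columns (Perp, Col17a1, Jag2, Fgfr2 and Bnc1) and 0 in simple-keratin columns, with a median log2 ratio of -0.42. Perp, Col17a1, Jag2 and Fgfr2 are also counted in the desmosome, hemidesmosome, Notch and FGF lists, so these lists are not separate evidence. Trp63 itself was 0.251, 82.7 and 3378 CPM in simple-keratin and 166, 498 and 1288 CPM in basal-keratin columns. It was not called, at a log2 ratio of -1.41, and 49 of 65 simple-keratin columns held at least 10 CPM, against 2 of 79 collagen-high columns. A gene-level count does not show whether a transcript carries a mutation. Satb1, Fras1 and Chuk had log2 ratios of 0.24, -0.03 and -0.10, whereas Zfp750 was at 2.16 without being called. The family members differed, with Trp53 at 159 against 303 CPM and not called, and Trp73 at 14.4 against 0.00536 CPM in summed basal- and simple-keratin columns, in 14 of 43 basal-keratin columns at 10 CPM or more. Of the p53 family and its targets, 2 of 12 compared were called, both in the basal direction, and the median log2 ratio was -0.32. Of the targets, Phlda3 was called (69.03 against 14.6 CPM), and Mdm2, Bax, Ccng1 and Cdkn1a had log2 ratios of 0.30, -0.02, -0.01 and 1.505.

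Transcription factors of the surface ectoderm leaned to the simple state. All 18 compared had a log2 ratio above 0, with a median of 0.95, and 3 were called higher in simple-keratin columns. Elf3, an Ets factor of simple epithelia, was 0, 17.1 and 613 CPM in simple-keratin and 0, 0 and 42.3 CPM in basal-keratin columns. Grhl3 and Grhl1, Grainyhead factors of barrier formation, were 308 against 45.3 CPM and 114 against 12.4 CPM, whereas Grhl2 was 101 against 91.5 CPM and not called. Gata3, Tfap2a, Tfap2b, Klf4 and Ovol2 also differed little, with log2 ratios of 0.48, 0.41, 0.42, 0.14 and 0.05. Tfap2c was at 1.71 and Klf5 at 0.99, both below the fold limit.

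Snai2, which encodes the zinc finger repressor Slug, was among the genes furthest apart. It was 0, 0 and 2.51 CPM in simple-keratin and 0.254, 269 and 1331 CPM in basal-keratin columns, and reached 10 CPM in 0 of 65 and 42 of 43 columns. It also reached 10 CPM in 69 of 79 collagen-high columns. Vim, the intermediate filament gene of mesenchyme, was 0, 0.259 and 292 and 0, 0.485 and 109 CPM, with a log2 ratio of 0.79. Snai1, Twist1, Twist2, Zeb1, Zeb2 and Cdh2 stayed below 5 CPM in both sums, and Fn1 was not called at -2.20, so 1 of the 3 genes of mesenchymal transition compared was called.

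Of 14 Wnt genes compared, 5 were called higher in basal-keratin columns and 0 in simple-keratin columns, with a median log2 ratio of -1.23. Fzd10, a Wnt receptor, was 0, 0 and 93.5 CPM in simple-keratin and 12.8, 171 and 619 CPM in basal-keratin columns. Fzd6, the receptor that orients hairs, was 263 against 39.03 CPM in summed basal- and simple-keratin columns. The ligands called were Wnt3a (89.7 against 0.0714 CPM), Wnt7a (87.5 against 15.5 CPM) and Wnt10b (32.7 against 3.29 CPM). Wnt6, Wnt10a and Wnt7b were not called, with log2 ratios of 0.42, -0.37 and -0.80, and the target gene Axin2 was at 1.80. Ligand genes thus differed one from the next, with Wnt3a nearly absent from simple-keratin columns and Wnt6 counted at 10 CPM in 63 of 65 of them.

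Of 7 Notch genes compared, 3 were called higher in basal-keratin and 1 in simple-keratin columns, with a median log2 ratio of -1.86. The ligand genes Dll1 (116 against 3.57 CPM), Jag2 (99.9 against 4.41 CPM) and Jag1 (39.5 against 4.39 CPM) were called higher in basal-keratin columns. The receptor gene Notch3 was 0, 60.03 and 556 CPM in simple-keratin and 0, 0 and 157 CPM in basal-keratin columns and was called in the other direction. Notch1 and Notch2 were not called, at -1.86 and 0.83, nor was the target Hes1, at 0.60. In the FGF list 1 of 9 genes was called, and the median was -0.89. Fgfr2, receptor of dermal FGF ligands, was 0, 4.19 and 584 and 66.9, 867 and 1780.2 CPM, and its states overlapped in the upper part of the simple-keratin range. Fgfr1, Fgfr3 and the feedback genes Spry1 and Dusp6 were not called. Of 10 hair placode genes 1 was called (Wnt10b), with all 10 log2 ratios below 0 and a median of -1.24. Edar was 34.5 against 4.07 CPM in summed basal- and simple-keratin columns but reached 10 CPM in only 15 of 43 basal-keratin columns, and Shh and Sostdc1 had log2 ratios of -0.91 and -0.22. None of 8 BMP genes was called, with a median of 0.34.

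**Figure D4:**
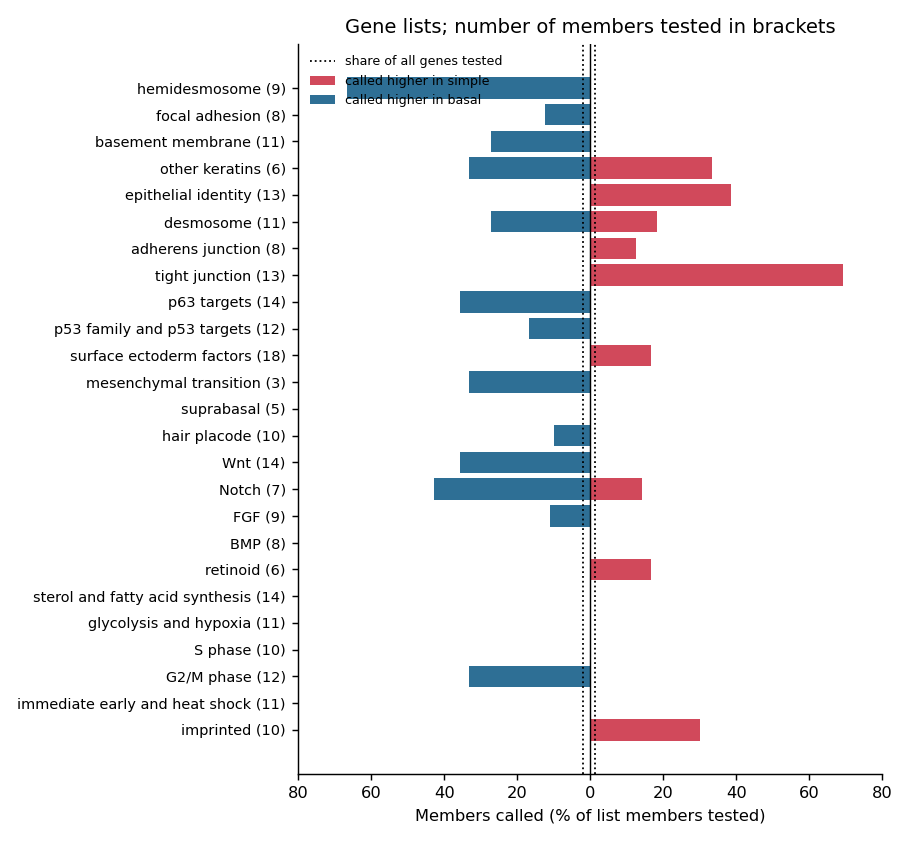
Share of the members compared that were called higher in simple-keratin columns (right) or higher in basal-keratin columns (left) in 25 functional gene lists, in percent, with the number compared in brackets and dotted lines at the shares of all genes (1.33% and 2.01%). Tight junction genes extend furthest to the right and hemidesmosome genes furthest to the left. A gene can belong to more than 1 list.

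Other genes among the 30 largest ratios in the simple direction had varied roles. Slc40a1, the iron exporter ferroportin, was 0, 686 and 7109 CPM in simple-keratin and 0, 0.738 and 269.5 CPM in basal-keratin columns. Gabrp, an epithelial GABA receptor subunit, was 787 against 13.2 CPM, summed, Upk3bl 199 against 1.61 CPM and the peptidase gene Dpp4 136 against 1.25 CPM. The cytoskeletal genes Nebl, Limch1 and Lmo7 were 409.8 against 7.59 CPM, 149 against 2.07 CPM and 271 against 10.3 CPM. Of classical MHC genes, H2-K1 was 87.2 against 0.888 CPM. Vgll1, a cofactor of TEAD factors, was 98.7 against 1.64 CPM, and Dach2 182 against 6.09 CPM. Some of these sums rested partly on single columns, since 1 column held 37.3% of the summed Nfatc4 counts, 29.5% of Nrk and 24.6% of Metrnl.

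Imprinted genes gave 3 of 10 members called higher in simple-keratin columns and 0 called higher in basal-keratin columns, with a median log2 ratio of 2.01. Meg3, a maternally expressed noncoding RNA, was 0, 56.3 and 956 CPM in simple-keratin and 0, 0 and 18.3 CPM in basal-keratin columns, and Rian of the same cluster was 0, 5.47 and 1336 and 0, 0 and 0.8097 CPM. Meg3 was also counted at 10 CPM in 79 of 79 collagen-high columns, and the part of RNA from such cells was not tested. Peg3 was 2.09, 1255 and 6975 and 0.906, 296 and 941 CPM, and Plagl1 205 against 39.9 CPM. H19 and Igf2, neighbours in another cluster, were not called, at log2 ratios of 1.58 and 1.91, although H19 was higher in the simple-keratin column in 88.3% of pairs. Grb10 was at -0.09.

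Genes among the 30 largest ratios in the basal direction also had varied roles. Anxa8, an annexin, was 0, 153 and 698 CPM in basal-keratin columns and at most 1.32 CPM in a simple-keratin column. Dlk2, a Notch-related surface protein, was 111 against 0.0393 CPM in summed basal- and simple-keratin columns, Edaradd, the adaptor of the ectodysplasin receptor, 62.4 against 0.0286 CPM, and the giant cadherin Fat2 33.4 against 0.0286 CPM. Matrix and secreted proteins included Fbln2 (279.6 against 2.62 CPM), Megf6 (662 against 25.1 CPM), Igfbp4 (198 against 4.38 CPM) and Fst, which encodes follistatin (61.8 against 0.4802 CPM). Transport and metabolic genes included the aquaglyceroporin Aqp3 (171 against 2.33 CPM), the amino acid transporter Slc7a5 (96.3 against 1.52 CPM), Car12 (146 against 3.67 CPM) and Cbs (142 against 1.47 CPM). Trim29, a marker of basal epithelia, was 0, 0.3301 and 431 CPM in simple-keratin and 146, 395 and 971 CPM in basal-keratin columns, and 1 basal-keratin column held 27.1% of the summed Igfbp4 counts.

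Of 22 cell cycle genes, 4 were called, all higher in basal-keratin columns. All 12 genes of G2/M phase had a log2 ratio below 0, with a median of -1.51, and the 4 called genes were among them (Top2a, Plk1, Aurkb and Bub1). Top2a, a topoisomerase of dividing cells, was 0, 0.837 and 1707 CPM in simple-keratin and 0.667, 397 and 1439.8 CPM in basal-keratin columns, and reached 10 CPM in 18 of 65 and 33 of 43 columns, the same numbers as after thinning to 500000 counts. Plk1 reached 10 CPM in 14 of 65 and 32 of 43 columns. These calls were close to the limit, at log2 ratios of -2.09, -2.24, -2.02 and -2.03, and 2 of 12 were called once the haemoglobin-rich column was left out, 1 of 12 with columns thinned to 500000 counts and 10 of 12 when either collagen removed a column. All 10 genes of S phase were below 0 as well, with a median of -1.12 and 0 called. Mcm6 and Slbp were nearest to equal, at -0.47 and -0.78. Columns with and without these transcripts were thus present in both states, in different numbers.

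Lists of metabolism and stress gave 0 calls in either direction. The 14 genes of sterol and fatty acid synthesis compared had a median log2 ratio of 0.76, the 11 of glycolysis and hypoxia -0.52, and the 11 immediate early and heat shock genes 0.56. Fos was 3.22, 3006 and 11248 CPM in simple-keratin and 1.02, 902 and 15012 CPM in basal-keratin columns, so both states spanned from almost none to high levels. Atf3 and Jun had log2 ratios of -1.38 and -1.15, and Junb and Ier2 of 1.18 and 0.75. Of 6 retinoid genes compared, with a median of 2.34, 1 was called, Crabp2, a carrier of retinoic acid, at 0, 0.483 and 511 and 0, 0 and 3.78 CPM. Crabp2 was higher in the simple-keratin column in 75.4% of pairs, close to the limit. Of 5 suprabasal genes compared 0 were called, and Krtdap, an early gene of keratinocyte differentiation, was 0, 14.4 and 870.3 and 0.285, 5.81 and 115 CPM.

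Among themselves the simple-keratin columns varied first by the columns described above. The first principal component of log2(CPM + 1) over 8045 genes held 11.5% of the variance. On it the 3 columns lay at 278 to 309, against at most 116 for the other 62, and its leading genes on that side were Gm42418, AY036118 and haemoglobin genes (Hba-a1, Hba-a2, Hbb-bs and Hbb-bt), opposite Nucb1, Rcn2, Bcap31 and Ctsb. Scores followed the share of ribosomal RNA genes with r = 0.71 over the 65 columns, a description in which the genes of the share also enter the component. Without the 3 columns the first component held 6.202% of the variance and was again led by Gm42418 and AY036118, opposite Csrnp1, Ppp1r15a, Atf3 and Fos. The second component then held 4.13%, and its scores followed depth, with r = 0.66 to log total counts and 0.50 to genes with a count. The third component held 3.59% and set Ccnb1, Ccna2, Ccnb2 and Birc5, genes of division, against Pou2f3, Stc1, Cav1, Aldh3b2 and Dpp4, with Gm37376, Gm42418 and AY036118 also on the latter side.

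Columns with both kinds of keratin resembled the simple state outside the keratins. There were 18 columns with at least 100 CPM of Krt8 and Krt18 and of Krt5 or Krt14, of which 3 had both basal keratins. They thus met the Krt8 and Krt18 limits of the simple state. Their median Krt5 and Krt14 were 199 and 35.1 CPM, against 3935 and 5488 CPM in basal-keratin columns. Of the 164 genes called higher in simple-keratin columns, the summed level of these 18 columns was nearer the simple state for 163, on the log2(CPM + 1) scale. Of the 249 genes called higher in basal-keratin columns it was nearer the simple state for 204. The median gene lay 97.4% and 84.2% of the way from the basal to the simple level. Cldn3 was 440.2 CPM, Ocln 270.4 CPM, Snai2 1.98 CPM, Fgfr2 69.5 CPM and Col17a1 48.4 CPM in the summed 18 columns. Krt15 and Pkp1, however, were 5916 and 106 CPM there, near or towards the basal level. In 1 of the 18 columns all 6 called hemidesmosome members reached 10 CPM, against a median of 1 member. Summed levels of the 18 can therefore rest partly on single columns.

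Per column, the mean log2(CPM + 1) of the genes called higher in the simple state, less that of the genes called higher in the basal state, was 0.85, 4.45 and 5.73 in simple-keratin columns (lowest, median and highest; lowest 2.15 without the 3 columns that stood apart) and -3.81, -2.99 and -0.90 in basal-keratin columns. The sign is fixed by the choice of these genes. In the 18 columns with both kinds of keratin this difference was -1.78, 4.33 and 5.71, above 0 in 17 of 18. The choice of genes did not use these 18 columns. They had, however, passed the same Krt8 and Krt18 limits as the simple state, so their likeness to it is not an independent result. The 15 columns with only 1 of Krt5 and Krt14 lay between 2.23 and 5.71. The 3 columns with both lay at -1.78, 1.21 and 4.01. The middle column lay within the range of all 65 simple-keratin columns but below that of the 62 without the 3 apart, and the highest lay within both.

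**Figure D5:**
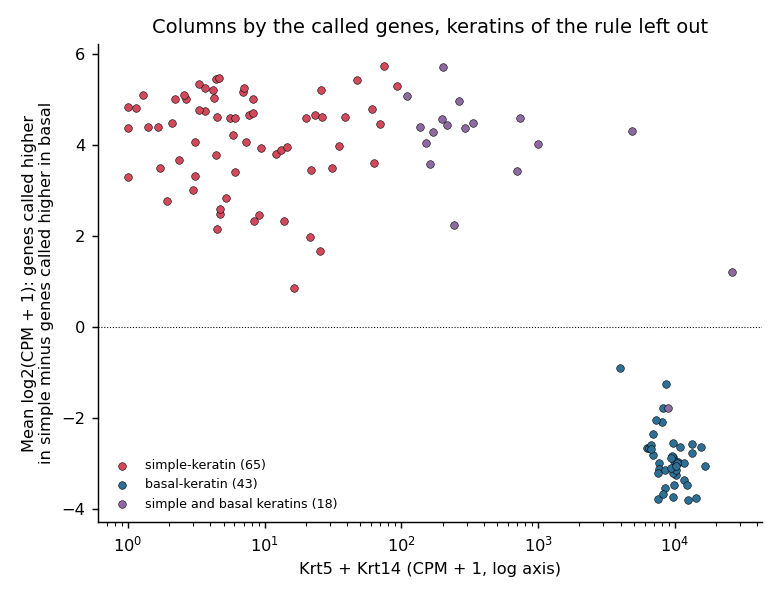
Summed Krt5 and Krt14 (x axis, CPM + 1, log axis) against the difference in mean log2(CPM + 1) between the genes called higher in simple- and in basal-keratin columns (y axis), with 1 point per column for 65 simple-keratin, 43 basal-keratin and 18 columns with both. All but 1 of the 18 columns lie above 0 with the simple-keratin columns, also where Krt5 and Krt14 exceed 100 CPM.

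Among other epithelial columns, 2 sets that shared 1 column were set against both states. In 10 columns with at least 1000 CPM of Krt17 and 300 CPM of Krt5 and under 100 CPM of Krt8, 120 of the 164 simple-state genes and 233 of the 249 basal-state genes were nearer the basal level. In 8 columns with at least 500 CPM of both Krt1 and Krt10 and as little Krt8, 74 of the 164 and 142 of the 249 were nearer the simple level. Ocln was 191 CPM and Nectin4 649.8 CPM in these 8 summed columns, while Cldn3 was 0.513 CPM and Col17a1 4.01 CPM. Tight junction genes were thus at unlike levels there relative to the simple state.

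Female and male fetuses both contributed to each state. Of the simple-keratin columns, 12 had at least 5 CPM of Xist and under 1 CPM of 4 Y-linked genes, and 40 the reverse. Of the basal-keratin columns, 17 and 25 did so. Neither pattern was met by 13 of 65 simple-keratin and 1 of 43 basal-keratin columns. Xist, Ddx3y, Uty, Kdm5d and Eif2s3y were not called, with log2 ratios of 0.41, -0.30, 0.25, 0.49 and -0.95.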

How the data were processed

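The authors aligned the paired reads of SMART-Seq HT libraries to mm10 with HISAT2, counted them on Ensembl release 97 with featureCounts, and deposited estimated counts per gene and column without normalization. Trimmomatic, HISAT2 and DESeq2 1.36.0 are named in the submitters' processing notes. Whether counting used strand is not given in the sources used here. Of the values above 0, 23.2% carry a fraction, and all were rounded. All 237 columns were used as 1 pool of cells, because columns are named by run and GEO's labels by cell.

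Members and gene lists were chosen with earlier results of these data known. CPM used the column total, and summed CPM the total of summed columns. Exact 95% Poisson intervals cover counting error only. Calls, on genes with at least 5 CPM in either sum, needed a 4-fold ratio with 1 CPM added and 75% of column pairs, ties being shared equally. The code was tested on simulated data. Genes named are the 30 largest ratios per direction (count in 80% of columns, no Gm or Rik names), called members of the lists, hemidesmosome and focal adhesion genes, p53 family genes, markers and sex-linked genes. Other list members were named after their values were seen, as was the motif CAGGTG. Values of some list members are not reported here. Promoter windows came from RefSeq (GRCm38.p6), matched by symbol. The alternatives were other scalings, pseudocounts, filters, fold limits, member limits and thinning. Aldoa matched no single gene identifier and was left out of its list. Scripts ran in Python 3.11.15 (scipy 1.17.1, pandas 2.3.3, numpy 2.4.6), and matplotlib 3.10.9 drew the figures.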

Additional observations from a re-analysis of the deposited data

How the results depend on the processing

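The count of genes called higher in basal-keratin columns (249) moved by more than 1.5 times under 5 settings, and that of genes called higher in simple-keratin columns (164) under 2. With a pseudocount of 10 CPM in place of 1, 104 genes were called higher in basal-keratin columns. With no condition on column pairs, 924 and 492 genes were called higher in simple- and basal-keratin columns, so that 65.3% of calls rather than 39.7% lay in the simple direction. At 2-fold, 716 were called higher in basal-keratin columns, and at 8-fold 100 and 114 were called in the simple and basal direction. Leaving out columns with either collagen at 100 CPM kept 33 simple-keratin columns and gave 160 and 411 calls, with 28.02% in the simple direction. The cause was not tested. Under the other alternatives, the counts lay between 129 and 228 in the simple and between 200 and 279 in the basal direction. Hemidesmosome members called were 4 at 8-fold, 5 with a pseudocount of 10 CPM and 6 under the others of the 19 alternatives. Of the called genes named here, 0 changed direction under any of them. This says little, since the genes were chosen as at least 4-fold apart and the alternatives reused these columns. With columns thinned to 500000 counts, 124 of the 164 and 180 of the 249 genes were still called in the same direction. With a pseudocount of 10 CPM, 129 and 104 were. Alternatives chosen after seeing the data were leaving out the haemoglobin-rich column, leaving out the 3 columns apart on the first component, and totals without ribosomal RNA and haemoglobin genes. Without the haemoglobin-rich column the G2/M members called were 2 in place of 4. Crabp2 was not called with columns thinned to 500000 counts, with Krt8 and Krt18 of at least 300 CPM, without the columns paired with WT01 cells, or when either collagen removed a column.

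The genes counted at equal depth differed by -1564 between the medians, simple-keratin less basal-keratin columns, and by -1378 at 200000 counts and -1993 unthinned. Of the called genes, the 18 columns with both kinds of keratin lay between the states in 58.6%, and the 3 with both Krt5 and Krt14 in 52.1%. No paired analysis was possible because the columns carry no replicate numbers and the keratin states are not groups of the labels. No library is a replicate of a state here, so no value measures the spread between fetuses, and counts of amplified reads limit what low levels show.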
